A study of Mus musculus with 16 samples.

Results

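The complement components and regulators measured here were 32 genes, picked by symbol and not by level from the 47729 gene rows of each count file. These genes were chosen with earlier results of the same data known. They comprised 10 genes of the recognition molecules and their proteases (C1qa, C1qb, C1qc, C1ra, C1s1, Mbl1, Mbl2, Fcna, Masp1 and Masp2), 6 genes of the convertases (C2, C3, C4b, Cfb, Cfd and Cfp), 7 of the terminal pathway (Hc, C6, C7, C8a, C8b, C8g and C9), 3 receptors (C3ar1, C5ar1 and Vsig4) and 6 regulators (Cfi, C4bp, Serping1, Cd55, Cd59a and Cr1l). Counts above 0 were found for 31 of the 32, and these 31 passed the filter on low counts in at least 1 test. Cfd, which encodes factor D and is best known as a product of fat cells, was listed at 0 counts in all 16 libraries, which allows up to 0.233 CPM. Of 4 adipocyte markers, Lep was at 0 as well, whereas Adipoq, Plin1 and Cidec each had counts in some libraries. Together the 4 summed to at most 4.43 CPM. The cause of the 0 for Cfd was not tested.

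Complement is a cascade of plasma proteins that marks surfaces for uptake and can end in a membrane pore. C1q, the mannose-binding lectins and the ficolins recognise a surface, their partner proteases cleave C4 and C2, the resulting convertases cleave C3 and then C5, and C5b gathers C6, C7, C8 and C9 into the pore. The liver is known as the main source of the plasma components, while host cells carry surface proteins such as CD55 and CD59 that stop the cascade on themselves.

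RNA was sequenced from liver endothelial cells (ECs), hepatic stellate cells (HSCs), Kupffer cells and hepatocytes, with 2 libraries labelled WT and 2 labelled KO per cell type. The KO label stands for adult mice with a Zeb2 gene whose exon 7 was floxed and a tamoxifen-inducible Cre recombinase under the Cdh5 promoter, which is active in endothelium, on an eGFP reporter background. WT stands for littermates without Cre. All mice received tamoxifen at 2 mg per day for 5 days, and the livers were not challenged further; by the study's methods the mice were 8-week-old males unless it says otherwise. Hepatocytes were separated by centrifugation, and the other cells were sorted as UV-positive HSCs, F4/80-positive Kupffer cells and ECs stained for a pan-endothelial marker. The labels do not tell which libraries share a mouse, so that p-values measure the spread between these libraries. Every test between labels compared 2 libraries with 2.

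The libraries held 12872706 to 15690506 gene-assigned reads (median 14806833). Levels are given as CPM, the count scaled to the library total, and 3 counts, taken as the least that this depth can show, were worth 0.191 to 0.233 CPM. The sorted cells carried the markers of their label. The summed level of 10 EC markers was 21714 to 31489 CPM in ECs and at most 3221 CPM in the other cell types, and that of 10 HSC markers was 73693 to 85614 CPM in HSCs and at most 1475 CPM elsewhere. For 10 Kupffer cell markers it was 32788 to 43048 CPM in Kupffer cells and at most 1874 CPM elsewhere. For 15 hepatocyte markers it was 131852 to 144805 CPM in hepatocytes and up to 31148 CPM in ECs labelled WT. Zeb2 was counted at 106 and 106 CPM in the ECs labelled WT and at 199 and 130.1 CPM in those labelled KO. The targeted gene was thus not lower in the ECs labelled KO, and a count over the whole gene does not show exon 7 alone, so that groups are named here by their labels. The study's own measures of the deletion were not analysed here.

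The question of which cell type carries each component was asked across all 16 libraries. A gene was called highest in a cell type when its mean level stood above that of each of the other 3 cell types at an adjusted p-value under 0.05 (edgeR's quasi-likelihood test, Benjamini-Hochberg adjustment over 17214 genes). Of the 31 members tested, 12 were highest in hepatocytes, 9 in Kupffer cells, 2 in HSCs and 2 in ECs, and 6 were called in no cell type. Of all genes tested, 17.9% were called highest in hepatocytes, 7.23% in Kupffer cells, 6.66% in HSCs and 4.81% in ECs. Scaling bore on these calls, because TMM normalization gave hepatocyte libraries factors of 0.497 to 0.588 and the others factors of 1.01 to 1.47. Compared with library totals, it moved the median gene by 0.99 to 1.31 on the log2 scale towards hepatocytes. The 12 hepatocyte and 9 Kupffer cell calls were the same in number on library totals, whereas the calls in HSCs went from 2 to 6 and those in ECs from 2 to 3.

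**Figure D1:**
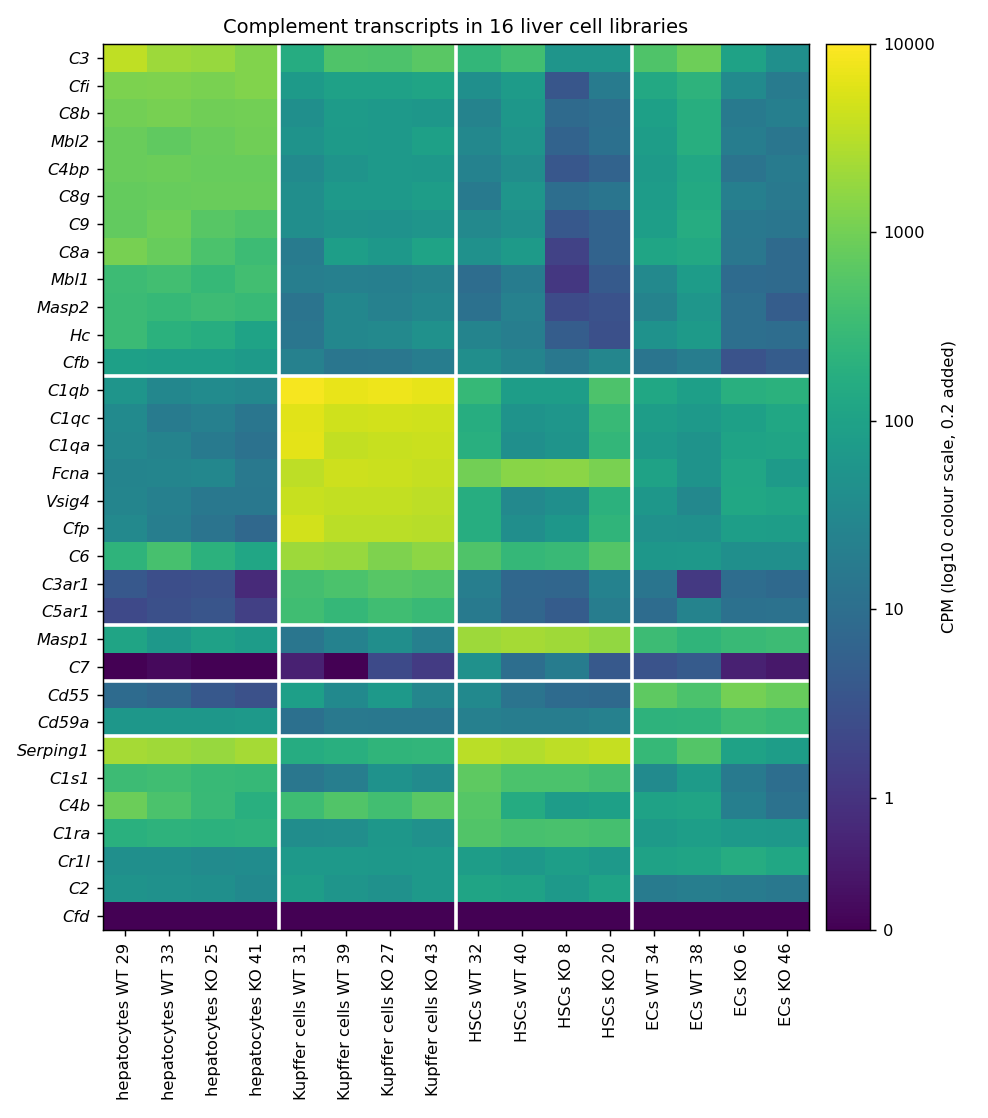
Level of each of the 32 members (rows, grouped by the cell type in which they were called highest, uncalled genes at the bottom) in each of the 16 libraries (columns, with cell type, label and library number). The colour gives CPM on a log10 scale with 0.2 added; the 12 hepatocyte members stand out in the 4 hepatocyte libraries, the 9 Kupffer cell members in the 4 Kupffer cell libraries, and Fcna is bright in the HSC libraries as well.

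The recognition molecules were split between 3 cell types. The 3 chains of C1q, which binds antibody complexes and dying cells, were highest in Kupffer cells. C1qb stood at 8489.7 and 6891 CPM in the Kupffer cells labelled WT and at 7522 and 6610.1 CPM in those labelled KO, against 80.9 to 482 CPM in HSCs, 90.8 to 199 CPM in ECs and 29.7 to 55.8 CPM in hepatocytes. The nearest cell type, HSCs, was lower by a log2 difference of 5.08 ± 0.59 (SE), adjusted p = 3.65e-05. C1qa and C1qc followed the same order, at 3759.6 to 6338 CPM and 4576 to 6049 CPM in Kupffer cells, and all 3 genes lie within one stretch of chromosome 4 (GRCm38, C1qb at chr4:136880129-136886187, C1qc at chr4:136889804-136893065 and C1qa at chr4:136895917-136898803, minus strand). Per exon length, C1qb was the most abundant member in Kupffer cells, with 16196 to 19339.5 TPM. This unit also corrects for length, taken here as the merged exons of all annotated transcripts of a gene. The C1q proteases C1ra and C1s1 were not Kupffer cell genes. C1ra was counted at 416 to 522 CPM in HSCs, 195 to 217 CPM in hepatocytes, 64.5 to 87.5 CPM in ECs and 40.1 to 60.1 CPM in Kupffer cells, and C1s1 at 392 to 683, 285 to 369, 9.87 to 76.8 and 14.2 to 50.3 CPM in the same order. HSCs and hepatocytes could not be ranked for either gene, since the TMM-normalized difference of HSCs minus hepatocytes was -0.01 ± 0.16 (SE), adjusted p = 1 for C1ra and -0.48 ± 0.25 (SE), adjusted p = 0.122 for C1s1, and on library totals both were called highest in HSCs.

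The lectin pathway was spread over hepatocytes, Kupffer cells and HSCs. The mannose-binding lectins Mbl1 and Mbl2 were highest in hepatocytes, at 276 to 373 CPM and 724 to 977 CPM. Masp2, the protease that cleaves C4 and C2 in this pathway, was also highest there, at 283 to 329 CPM, with the limit that 1817 of its exonic bases overlap Tardbp on the other strand. Masp1, its partner protease (GRCm38, chr16:23449417-23520815, minus strand), was highest in HSCs, with 2042 and 2323 CPM under the WT label and 2137 and 1741 CPM under the KO label. ECs came next at 232 to 337 CPM, a log2 difference of 3.01 ± 0.27 (SE), adjusted p = 6.8e-06, and Kupffer cells were lowest at 14 to 42.3 CPM. The genes of this pair of MBL-associated proteases were therefore highest in different cell types in these libraries. Counts over the whole gene do not separate its transcripts.

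Fcna, which encodes ficolin A, another lectin pathway recognition molecule (GRCm38, chr2:25624666-25628030, minus strand), was highest in Kupffer cells, with 3419 and 4369.9 CPM under the WT label and 4124 and 3789.9 CPM under the KO label. HSC libraries held 982 and 1433 CPM under WT and 1535 and 1129.9 CPM under KO, whereas ECs had 51.8 to 122 CPM and hepatocytes 16 to 29.3 CPM. The level in HSCs was below that in Kupffer cells (log2 difference 1.70 ± 0.27 (SE), adjusted p = 0.000395) and above that in ECs (ECs minus HSCs, -4.11 ± 0.30 (SE), adjusted p = 1.48e-06). Kupffer cell RNA in the HSC libraries was followed with 10 Kupffer cell markers. In the 4 HSC libraries the median of these markers was 4.56 and 1.16% of the level in WT Kupffer cells under the WT label and 0.907 and 4.71% under the KO label, with no single marker above 7.48%. Fcna stood at 24.3% to 35.3% of its own WT Kupffer cell level in the same libraries. The marker levels were highest in HSC libraries WT 32 and KO 20, and Fcna was lower in those than in WT 40 and KO 8. The C1q chains, Cfp and Vsig4 went the other way, each being higher in WT 32 and KO 20. The summed level of 4 monocyte markers was 298 to 391 CPM in the HSC libraries and 48.5 to 157 CPM in Kupffer cells. The part of Kupffer cell or monocyte RNA in the Fcna values of the HSC libraries was not tested.

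**Figure D2:**
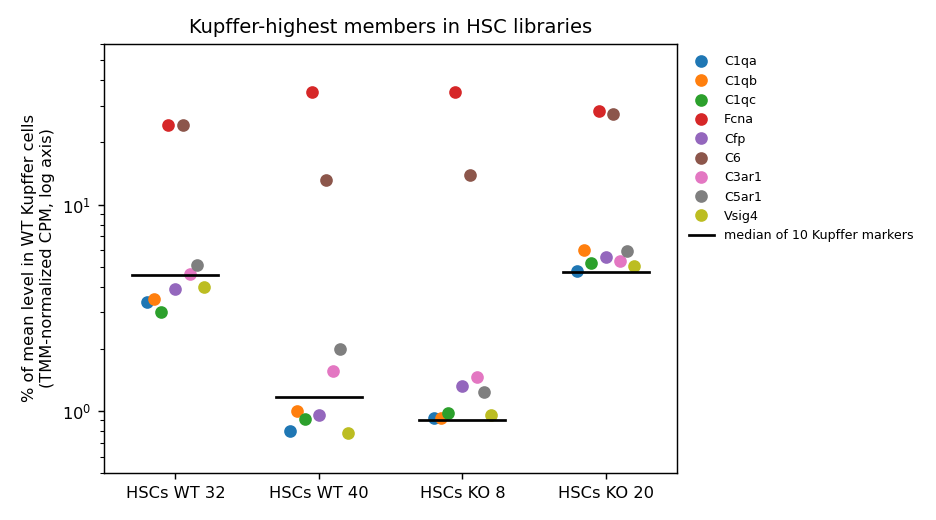
Level of the 9 members that were highest in Kupffer cells, in each of the 4 HSC libraries, as a percentage of the mean of the 2 WT Kupffer cell libraries (TMM-normalized CPM, log axis). Black bars give the median of 10 Kupffer cell markers; Fcna and C6 lie above the bar in all 4 libraries, and the other 7 members lie near it.

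The central component C3 was highest in hepatocytes, at 3593 and 2075 CPM under WT and 1858 and 1279 CPM under KO, with 163 to 619.9 CPM in Kupffer cells, the nearest cell type. Cfb, the catalytic subunit of the alternative convertase, was highest in hepatocytes too, at 72.2 to 95.3 CPM, and HSCs followed at 14.8 to 41.4 CPM. Properdin (Cfp), which stabilises that convertase, was highest in Kupffer cells at 3168 to 4770.1 CPM and stayed at or below 237 CPM in the other cell types. C2 and C4b, which form the classical convertase, were called in no cell type. C2 was counted at 70.1 to 108 CPM in HSCs, 47.9 to 81.2 CPM in Kupffer cells, 34.4 to 50.8 CPM in hepatocytes and 14.8 to 20.5 CPM in ECs. ECs were below each of the others for C2 (log2 differences from -2.69 to -2.17), and the other 3 could not be ranked, although library totals placed HSCs first. C4b ranged from 181 to 896 CPM in hepatocytes, 348 to 616 CPM in Kupffer cells and 78.3 to 582 CPM in HSCs to 11.5 to 109 CPM in ECs. C2 and Cfb share 1656 and 2246 exonic bases with the read-through gene Gm20547 on the same strand, and C4b has the near-identical copy C4a, so that their counts depend on how shared reads were assigned.

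The terminal pathway came from 3 cell types. Hc, the mouse name for the C5 gene, the 3 C8 chains and C9 were highest in hepatocytes. Hc reached 105 to 316 CPM there, C8a 330.5 to 1084 CPM, C8b 953 to 1083 CPM, C8g 785 to 861 CPM and C9 510.1 to 935 CPM, and their differences from the nearest cell type lay between 3.72 and 5.11 on the log2 scale. C8a and C8b are neighbours on chromosome 4 (GRCm38, chr4:104766317-104804548 on the plus strand and chr4:104815679-104876398 on the minus strand). C6, the first protein to join C5b, was highest in Kupffer cells instead. It stood at 2048 and 1865 CPM in the Kupffer cells labelled WT and at 1213 and 1575 CPM in those labelled KO, at 275 to 559 CPM in HSCs, 122 to 421 CPM in hepatocytes and 42.7 to 64.3 CPM in ECs. Hepatocytes were lower by a log2 difference of 1.79 ± 0.32 (SE), adjusted p = 0.000418. In hepatocyte libraries C6 reached 13.7% to 44.4% of its WT Kupffer cell level, where no Kupffer cell marker exceeded 2.86%. C7 joins the complex after C6. Its counts were 740 and 152 in HSCs labelled WT and 264 and 56 in those labelled KO, 3 to 56 in ECs, 0 to 31 in Kupffer cells and 0 or 1 in hepatocytes, and it was called highest in HSCs (HSCs minus ECs, 4.35 ± 0.87 (SE), adjusted p = 0.00369). No call for C7 could be made at 10 counts in every library, a filter that it did not pass. C7 was also not called when the 8 WT libraries or the 8 KO-labelled libraries were tested alone.

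The 3 receptors were all highest in Kupffer cells. Vsig4, a macrophage receptor for C3b that is a known Kupffer cell gene, stood at 3472 to 4112 CPM. The anaphylatoxin receptors C3ar1 and C5ar1 stood at 399 to 594 CPM and 274 to 358 CPM. Neither receptor exceeded 25.4 CPM in any library of another cell type.

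The regulators divided into plasma proteins and membrane proteins. Cfi, the protease that inactivates C3b and C4b, and its cofactor C4bp were highest in hepatocytes, at 1113 to 1299 CPM and 795 to 889 CPM. Serping1, the C1 inhibitor (GRCm38, chr2:84765387-84775444, minus strand), was abundant in both HSCs and hepatocytes, at 2871 to 3875 CPM and 1881 to 2339.9 CPM. HSCs and hepatocytes could not be ranked for Serping1 on TMM-normalized levels (HSCs minus hepatocytes, -0.50 ± 0.21 (SE), adjusted p = 0.0614), although library totals placed HSCs first. Per exon length it was the most abundant member in both, with 3935 to 5143 TPM in HSCs and 1819.8 to 2287 TPM in hepatocytes. Cd55, the decay accelerating factor that takes apart convertases on the cell's own surface (GRCm38, chr1:130439027-130462744, minus strand), was the EC gene of the set. ECs held 681 and 471 CPM under WT and 1021 and 816 CPM under KO, against 29 to 90.3 CPM in Kupffer cells, 7.81 to 34.5 CPM in HSCs and 2.7 to 8.48 CPM in hepatocytes, and the nearest cell type was lower by a log2 difference of 3.39 ± 0.43 (SE), adjusted p = 7.97e-05. Cd59a, which blocks the assembly of C9 into the pore (GRCm38, chr2:104095801-104115354, plus strand), was highest in ECs as well, at 221 to 351 CPM against 60.6 to 66.1 CPM in hepatocytes. Its TMM-normalized margin over hepatocytes was smaller, with a log2 difference of 0.72 ± 0.16 (SE), adjusted p = 0.00173, and it was lost when the 8 WT libraries were tested alone. Cr1l, another membrane inhibitor of convertases, was more even, at 102 to 161 CPM in ECs, 64.7 to 85.3 CPM in HSCs, 65 to 67.5 CPM in Kupffer cells and 36.6 to 43.6 CPM in hepatocytes. It was called highest in ECs on library totals and among genes with at least 10 counts in every library, but not with TMM and the filter used here.

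Promoter sequences were read for 25 of the 32 members from RefSeq (GRCm38.p6, 250 bases before to 50 bases after each gene's start). They were searched on both strands for 6 motifs, and Cfb, C1qa, Cfi, Masp1, Serping1, C4b and C2 had no entry. The half-site of HNF1, a hepatocyte transcription factor, is GTTAAT, or ATTAAC on the other strand. It occurred in 4 of the 10 hepatocyte members with a promoter (40.0%) and in 8.24% of the promoters of 27025 genes. The following 100-base windows of those 4 promoters are written 5′ to 3′ along the gene's strand with the half-site in capitals. They lie at chr2:35061434-35061533, minus strand for Hc, chr4:104876453-104876552, minus strand for C8a, chr4:104766067-104766166, plus strand for C8b and chr1:130661630-130661729, minus strand for C4bp.
Hc: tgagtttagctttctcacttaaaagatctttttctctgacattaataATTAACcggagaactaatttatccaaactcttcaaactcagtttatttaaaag
C8a: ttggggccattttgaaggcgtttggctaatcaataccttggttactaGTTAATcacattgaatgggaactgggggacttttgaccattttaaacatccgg
C8b: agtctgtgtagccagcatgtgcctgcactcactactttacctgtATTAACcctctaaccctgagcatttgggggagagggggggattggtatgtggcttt
C4bp: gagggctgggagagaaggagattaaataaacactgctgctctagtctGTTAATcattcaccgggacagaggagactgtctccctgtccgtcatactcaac
The half-site began 74 bases before the start in Hc, 107 in C8a, 206 in C8b and 64 in C4bp. The same letters occurred in 4 members of other cell types or none (C1ra, C7, Cd55 and Cfp), so that 8 of the 25 members held them (32.0%). By cell type, these were 1 of 8 Kupffer cell members, 1 of 1 HSC members and 1 of 2 EC members. The C/EBP motif TTGCNNAA occurred in C3 and C9 among the 10 hepatocyte members (20.0%) and in 12.2% of all genes. The motif GAGGAAG of PU.1, a macrophage factor, occurred in 2 of the 8 Kupffer cell members with a promoter (C1qc and Fcna, 25.0%) and in 15.4% of all genes. It occurred 3 times in Fcna, within chr2:25628094-25628193, minus strand, where the last 2 copies overlap.
Fcna: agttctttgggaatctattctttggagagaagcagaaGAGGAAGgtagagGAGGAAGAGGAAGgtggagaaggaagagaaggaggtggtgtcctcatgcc
The E-box CACCTG, to which ZEB proteins are known to bind, occurred in 2 of the 25 members (C1qb and Cfd, 8.0%) and in 22.6% of all genes, and in none of the 10 hepatocyte members. The interferon response motif was found in Cd59a alone among the members (3.99% of all genes), and the NF-kB motif in none (0.466% of all genes).

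ECs were then compared between the labels, the comparison that concerns the cells in which the Cdh5 promoter is meant to drive Cre. Of the 31 members tested, 12 were lower in the ECs labelled KO at an adjusted p-value under 0.05 and none was higher (edgeR's quasi-likelihood test, Benjamini-Hochberg adjustment over 14631 genes). Of all genes tested, 2.08% passed in either direction and 1.97% were lower. The 12 were Mbl1, Mbl2, C3, C4b, Hc, C8a, C8b, C8g, C9, Cfi, C4bp and Serping1, and 10 of them were members that were highest in hepatocytes. The other 2 hepatocyte members, Masp2 and Cfb, had log2 differences of -2.50 ± 0.53 (SE), adjusted p = 0.0826, and -2.10 ± 0.45 (SE), adjusted p = 0.0877. For all 12 hepatocyte members, both ECs labelled KO lay below both labelled WT, which held for 24.1% of all genes tested. Their median log2 difference was -2.75, beside a median of -0.01 over all genes tested.

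The lectins fell from 32.7 and 78.2 CPM in the ECs labelled WT to 8.57 and 8.06 CPM in those labelled KO for Mbl1, a log2 difference of -2.73 ± 0.44 (SE), adjusted p = 0.0404. Mbl2 stood at 81.6 and 178 CPM under WT and 19.6 and 14 CPM under KO, a difference of -2.95 ± 0.40 (SE), adjusted p = 0.03. C3, which all convertases cleave or contain, had 498 and 907 CPM under WT and 100.3 and 43 CPM under KO, a difference of -3.31 ± 0.47 (SE), adjusted p = 0.0315. The groups were apart for each of these genes, although library WT 38 held more than WT 34 each time. C4b, the substrate of the C1 and MBL proteases, was at 102 and 109 CPM under WT and 21.5 and 11.5 CPM under KO, a difference of -2.69 ± 0.32 (SE), adjusted p = 0.029.

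Of the 7 terminal components, 5 fell. C8a had 117 and 139 CPM under WT and 14.6 and 8.2 CPM under KO, which was the lowest adjusted p-value of the members at a log2 difference of -3.50 ± 0.31 (SE), adjusted p = 0.019. C9, which lines the pore, went from 85.9 and 161 CPM to 15.2 and 13.9 CPM (-3.08 ± 0.34 (SE), adjusted p = 0.0245). Hc went from 49.3 and 71.3 CPM to 10.3 and 9.18 CPM (-2.63 ± 0.29 (SE), adjusted p = 0.0245). C8b and C8g, the other chains of C8, had log2 differences of -2.79 and -2.59, with adjusted p-values of 0.0295 and 0.03 by the same test. The terminal genes that were not highest in hepatocytes did not pass. C6 stood at 60.6 and 64.3 CPM under WT and 42.7 and 43 CPM under KO (adjusted p = 0.309), and C7 had 42 and 56 counts under WT against 5 and 3 under KO (adjusted p = 0.127).

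Among the regulators, the 3 plasma proteins fell, and none of the 3 membrane proteins passed in either direction. Cfi went from 134 and 222 CPM to 35.2 and 17.6 CPM (-2.77 ± 0.39 (SE), adjusted p = 0.03), and C4bp from 72.8 and 131 CPM to 12.9 and 17.8 CPM (-2.72 ± 0.37 (SE), adjusted p = 0.03). Serping1 went from 285 and 557 CPM to 101 and 81.6 CPM (-2.21 ± 0.35 (SE), adjusted p = 0.0379). The EC members lay on the other side, without passing the test. Cd55 stood at 681 and 471 CPM under WT and at 1021 and 816 CPM under KO, a log2 difference of 0.66 ± 0.28 (SE), adjusted p = 0.348. Cd59a stood at 221 and 222 CPM and 351 and 295 CPM, a difference of 0.54 ± 0.21 (SE), adjusted p = 0.304. Cr1l stood at 102 and 109 CPM under WT and at 161 and 124 CPM under KO (adjusted p = 0.411). The summed level of 10 EC markers was 21714 and 27623 CPM under WT and 30916.5 and 31489 CPM under KO. Their median log2 difference was -0.06. The part of EC RNA in the values of these 3 membrane proteins was not tested.

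**Figure D3:**
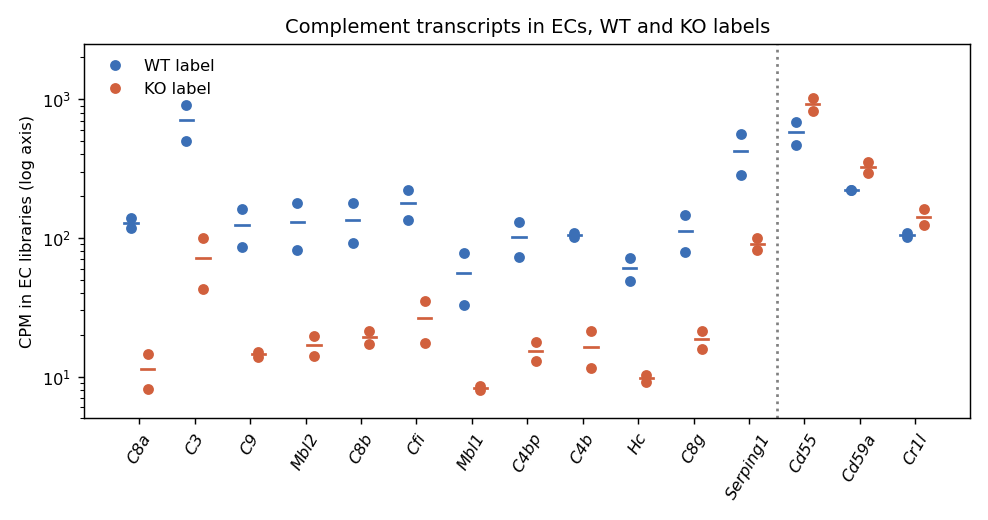
CPM (log axis) of the 12 members that passed the test between labels in ECs, in order of their log2 difference, and of 3 membrane regulators to the right of the dotted line. Points are single EC libraries, 2 per label, and bars are means. For the 12 members both KO points lie below both WT points.

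Hepatocyte markers moved with the 12 hepatocyte members. Of 15 such markers, none of them a complement gene, 14 were lower in the ECs labelled KO by the same test, with a median log2 difference of -2.93 and a range from -3.98 to -2.50. Their summed level was 15419 and 31148 CPM in the ECs labelled WT and 2613 and 3537 CPM in those labelled KO, and none was at 0. Relative to WT hepatocytes on TMM-normalized levels, the median of the 12 members was 4.27 and 7.59% in ECs WT 34 and WT 38 and 0.992 and 0.788% in ECs KO 6 and KO 46. The median of the markers was 4.7 and 8.58% and 0.956 and 0.805% in the same libraries. On library totals in place of TMM, the medians were 10.4 and 19.6% under WT and 2.6 and 1.89% under KO for the members, and 11.4 and 22.1% and 2.46 and 1.93% for the markers. In the bulk RNA of a sorted population, fewer cells of a type and less RNA per cell cannot be told apart. The part of hepatocyte RNA in the differences of the 12 members between the labels was not tested. HSC markers were lower as well (1 of 9 tested passed, median log2 difference -1.47, summed level 1257 and 1475 CPM under WT and 532 and 767 CPM under KO), beside Serping1 and C7, and their part was not tested either.

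**Figure D4:**
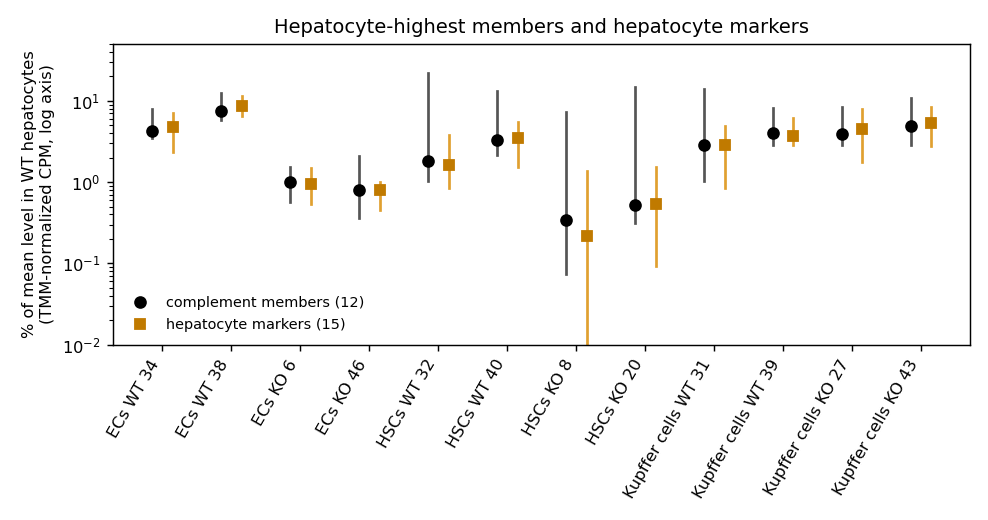
Level of the 12 hepatocyte members (black) and of 15 hepatocyte markers (orange) in each EC, HSC and Kupffer cell library, as a percentage of the mean of the 2 WT hepatocyte libraries (TMM-normalized CPM, log axis). Points are medians and lines run from the lowest to the highest gene, 1 marker in HSC KO 8 being at 0 and its line cut at the axis; both medians are under 1% in the ECs labelled KO and over 4% in those labelled WT.

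The calls in ECs rested on few libraries. Without EC library KO 46, edgeR called 0 members and 0.0189% of all genes, and without KO 6 it called 4 members and 0.369% of all genes. With the other hepatocyte-enriched genes left out of the fit it called 1 member (C8a) and 0.0217% of all genes. The calls over all genes thus became fewer in the same settings. The log2 differences of the 12 members stayed negative throughout, from -3.95 to -1.67.

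The 9 Kupffer cell members had a median log2 difference of 0.53 in ECs and none passed with edgeR. DESeq2 called 18 members in ECs, against 6.39% of all genes, among them the Kupffer cell members Cfp and Vsig4. At an unadjusted p-value under 0.05, 5 members were higher in the ECs labelled KO (C1qa, C1qb, Cfp, Vsig4 and Cd59a), against 4.86% of all genes, and 17 were lower, against 10.1%. Vsig4 stood at 61.7 and 30.9 CPM under WT and 126 and 111 CPM under KO (adjusted p = 0.145), and C1qa at 69.5 and 52.4 CPM and 105 and 113 CPM (adjusted p = 0.18). Kupffer cell markers moved the same way, with a summed level of 382 and 617 CPM under WT and 785 and 804 CPM under KO and a median log2 difference of 0.78, none of 10 passing the test. Their part in these values was not tested.

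HSCs showed the same direction for the hepatocyte members. No member of the 31 passed at an adjusted p-value under 0.05 with edgeR, where 0.0% of all genes passed, and DESeq2 called 10, against 2.7% of all genes. At an unadjusted p-value under 0.05, 13 members were lower and none higher, while 7.0% of all genes were lower. The 13 were 11 of the 12 hepatocyte members (all but Cfb), C4b and Cd55. C3 stood at 254 and 382 CPM in the HSCs labelled WT and at 56.5 and 55.7 CPM in those labelled KO, a log2 difference of -2.52 ± 0.27 (SE), adjusted p = 0.283. C8a stood at 46.7 and 71.1 CPM and 1.52 and 5.95 CPM (-3.96 ± 0.70 (SE), adjusted p = 0.309). For these 11 members, both libraries labelled KO lay below both labelled WT, as did 19.3% of all genes tested. The hepatocyte markers ran parallel here too, with a summed level of 4571 and 10111 CPM under WT and 788 and 1922 CPM under KO and a median log2 difference of -2.61, beside -2.49 for the 12 members. EC markers, beside Cd55, had a median log2 difference of -1.03 and a summed level of 3015 and 3221 CPM under WT and 3116 and 3147 CPM under KO. The part of either was not tested. Masp1, Serping1 and Fcna, which had high counts in the HSC libraries, did not pass. Masp1 had a difference of -0.19 ± 0.22 (SE), adjusted p = 0.868, and Serping1, which passed in ECs, stood at 3234 and 2871 CPM under WT and 3457 and 3875 CPM under KO (0.25 ± 0.24 (SE), adjusted p = 0.849). Fcna differed by 0.12 ± 0.27 (SE), adjusted p = 0.947.

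In Kupffer cells no member passed with edgeR or with DESeq2, where 0.0% of all genes passed with edgeR and 0.51% with DESeq2. The 9 members that Kupffer cells carry had log2 differences between -0.54 (C6) and 0.33 (C3ar1). The 12 hepatocyte members had a median of 0.32, with hepatocyte markers at a median of 0.55 and a summed level of 7999 and 11157 CPM under WT and 12500.2 and 15073 CPM under KO. The one member at an unadjusted p-value under 0.05 was C1s1, with 14.2 and 20.2 CPM under WT and 50.3 and 36.2 CPM under KO (log2 difference 1.28 ± 0.35 (SE), adjusted p = 0.933), in a comparison where 3.35% of all genes were higher at that threshold. HSC markers had a median log2 difference of 0.61 in Kupffer cells, with a summed level of 592 and 749.8 CPM under WT and 552 and 1117 CPM under KO. Neutrophil markers had one of 3.23, with 17.9 and 22.4 CPM and 21.6 and 268 CPM, the highest being library KO 27. Mesothelial markers had one of 1.71, with 7.37 and 9.12 CPM and 16.4 and 35.5 CPM. Cholangiocyte markers had one of 1.47, with 6.13 and 14.5 CPM and 21.7 and 28.7 CPM. The part of these cells in the values of C1s1 was not tested.

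In hepatocytes, the main source of the plasma components, no member of the 30 tested passed with edgeR, where 0.0% of all genes passed, and DESeq2 called 2 (C4b and C8a), against 0.246% of all genes. The 12 hepatocyte members had a median log2 difference of -0.04. At an unadjusted p-value under 0.05, 9 members were lower and none higher, while 4.69% of all genes were lower. They were C3, C4b, Hc, C8a and C9, the Kupffer cell members C1qa, Cfp and Vsig4, and Cd55. C8a stood at 1084 and 803 CPM under WT and 466 and 330.5 CPM under KO (-1.18 ± 0.23 (SE), adjusted p = 0.7), whereas its neighbour C8b stood at 992 and 1083 CPM and 953 and 984 CPM (-0.04 ± 0.18 (SE), adjusted p = 0.973). C4b stood at 896 and 457 CPM and 301 and 181 CPM (-1.43 ± 0.36 (SE), adjusted p = 0.7), and C3 at 3593 and 2075 CPM and 1858 and 1279 CPM (-0.79 ± 0.28 (SE), adjusted p = 0.7). Exon length, the merged exons of all annotated transcripts of a gene, was set beside these values. It can exceed the length of the transcript expressed, which gene counts do not show. The exon length was 5143 bases for C3, 5695 for C4b, 6265 for Hc, 3636 for C8a and 2556 for C9. It was 1040 to 1736 bases for C1qa, Cfp and Vsig4, and 4853 for Cd55. C8b, with 2545 bases, and C4bp, with 6730, were not among the 9. Among hepatocyte-enriched genes, the fifth with the longest transcripts had a median log2 level, relative to the mean of the WT libraries, of -0.15 in hepatocytes KO 25 and -0.37 in KO 41, and the fifth with the shortest had -0.03 and 0.18. The summed Kupffer cell markers were 172 and 355 CPM under WT and 105 and 147 CPM under KO in these libraries, beside C1qa, Cfp and Vsig4. The summed EC markers were 151 and 178 CPM under WT and 99.1 and 146 CPM under KO, beside Cd55, with a median log2 difference of -0.76. The part of length, Kupffer cell RNA or EC RNA was not tested.

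**Figure D5:**
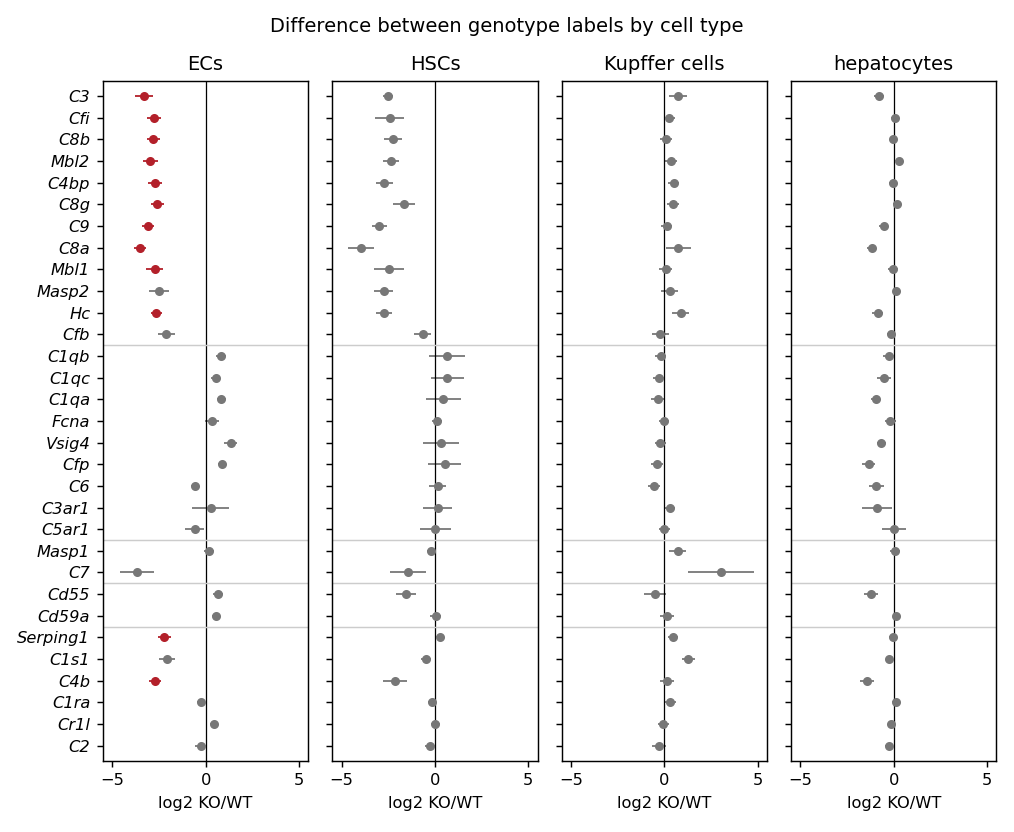
Log2 difference of libraries labelled KO from those labelled WT for the 31 members with counts, in each cell type (panels), with bars of 1 standard error from edgeR; C7 was not tested in hepatocytes. Red points passed an adjusted p-value of 0.05, which 12 members did in ECs and none in the other cell types; grey lines separate members by the cell type in which they were highest (from the top hepatocytes, Kupffer cells, HSCs, ECs and none).

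Whether the difference between labels differed between cell types was tested as an interaction over the 16 libraries, in which the cell types are compared with the same ECs. Between ECs and Kupffer cells, 10 members passed, against 2.07% of 17214 genes. They were C3, Hc, C8a, C8b, C8g, C9, Mbl2, C4bp, Serping1 and C1s1. Serping1 had a difference in ECs that was lower than that in Kupffer cells by a log2 value of -2.66 ± 0.43 (SE), adjusted p = 0.0162, and C3 one of -4.07 ± 0.71 (SE), adjusted p = 0.02. None of these calls remained without EC WT 38, EC KO 46 or Kupffer cell library WT 31, where 8, 1 and 29 of all genes passed. Between ECs and HSCs no member passed with edgeR, against 0.0349% of all genes, 4 were under 0.05 before adjustment (all genes, 4.85%), and DESeq2 called 1 (all genes, 0.662%). The nearest by edgeR was Serping1, at -2.44 ± 0.43 (SE), adjusted p = 0.125. Between ECs and hepatocytes no member passed with edgeR, against 0.0697% of all genes, 16 were under 0.05 before adjustment (all genes, 9.12%), and DESeq2 called 13 (all genes, 4.44%). A difference between ECs and HSCs was therefore not shown for the hepatocyte members.

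Another 32 complement genes that are not among the members gave a wider view. Of the 26 tested across cell types, 13 were highest in hepatocytes, 2 in HSCs, 2 in Kupffer cells and 2 in ECs. The shares over all genes tested were 17.9%, 6.66%, 7.23% and 4.81% in the same order. The HSC genes were the collectins Colec10 and Colec11, lectins that work with the MBL-associated proteases, like Masp1 highest in HSCs. Colec11 was counted at 5129 to 9003 CPM in HSCs and at most 109 CPM elsewhere, and Colec10 at 1311 to 1903 CPM in HSCs and at most 22.8 CPM elsewhere. The Kupffer cell genes were the chains of complement receptor 3, Itgam and Itgb2, at 4.47 to 22.7 CPM and 971 to 1101 CPM. Itgam was not called when the 8 KO-labelled libraries were tested alone. The EC genes were C5ar2, a second receptor for C5a, and Cd93, a C1q receptor-like protein, which stood at 186 to 244 CPM in ECs. C5ar2 was not called when the 8 WT libraries were tested alone. Of the 13 hepatocyte genes, 10 were called on library totals as well, among them C1rl, C1qbp, Clu, Vtn, Cpn1, Cpn2 and Apcs. C4a, Susd4 and Calr were not called on library totals, and the mean level of Calr was lowest in hepatocytes, at 634 CPM against 1096 CPM in ECs. Between the labels in ECs, 4 of the 25 tested fell (Vtn, Cpn1, Cfhr2 and C1rl), all of them hepatocyte genes, and none rose. Of all genes tested in ECs, 1.97% were lower and 2.08% passed in either direction. Vtn, which encodes vitronectin, an inhibitor of the terminal complex, went from 744 and 1494 CPM to 161 and 137 CPM (-2.90 ± 0.37 (SE), adjusted p = 0.029). C5ar2 stood at 20.7 and 4.04 CPM in the ECs labelled WT and 64.8 and 52.2 CPM in those labelled KO (adjusted p = 0.21), while Cd93 stood at 187 and 244 CPM and 186 and 213 CPM. No gene of this list passed between the labels in HSCs, Kupffer cells or hepatocytes with edgeR, where 0.0% of all genes passed. DESeq2 called 3, 0 and 0, against 2.7%, 0.51% and 0.246% of all genes. Before adjustment, 5 of 22 tested, 1 of 24 and 2 of 19 had a p-value under 0.05, against 8.75%, 5.09% and 7.11% of all genes.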

How the data were processed

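The authors deposited raw read counts per gene for 16 libraries, 1 file each, without normalization. Per the labels' processing notes, the authors used Trimmomatic 0.32, HISAT2 2.1.0, HTSeq 0.9.1 and edgeR with GRCm38; the annotation release and strand setting are not given in the sources used here. The labels give a stranded TruSeq mRNA kit, whereas the series text gives Smart-seq2. The 5 HTSeq summary lines, 42.5% to 57.5% of the records, were left out of totals. Symbols and 98.9% of identifiers matched GENCODE M21, from which lengths, positions and overlaps were taken.

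Groups were taken from the labels. CPM were counts over the library total, and TPM used exon lengths, merged over all annotated transcripts of a gene. Genes were tested with edgeR 4.0.16 in R 4.3.3 (filterByExpr, TMM, quasi-likelihood, Benjamini-Hochberg adjusted p-value under 0.05 over all genes tested), within a cell type for the labels and over 16 libraries with 8 group means for source and interaction. Depth and precision are given with the levels; counting floors cover counting error only. Alternatives were DESeq2 1.42.0, RLE factors, library totals, other filters, other sets of libraries, leaving out hepatocyte-enriched genes (857 genes with at least 10 CPM in WT hepatocytes and 8 times the level in WT Kupffer cells, of which 13 members were kept) and leaving out each library. The scripts were tested on simulated data. All members were named, with values per library for those called; of other lists, those called, apart from some genes that are not reported here. The members and lists were chosen with earlier results of these data known. Plots used Python 3.11.15 and matplotlib 3.10.9.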

Additional observations from a re-analysis of the deposited data

Results flagged for a closer look

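The difference between labels was lower in ECs than in Kupffer cells, by a test of the difference itself (edgeR's interaction term over 16 libraries, adjusted p-value under 0.05), for 10 members. Of all 17214 genes tested, 2.07% passed in either direction. Given as ECs minus Kupffer cells, the log2 value was -4.28 for C8a, -4.07 for C3, -3.52 for Hc, -3.38 for C1s1, -3.30 for Mbl2, -3.24 for C4bp, -3.21 for C9, -3.07 for C8g, -2.88 for C8b and -2.66 for Serping1. Of these members, 8 were highest in hepatocytes. The summed level of 15 hepatocyte markers was 15419 and 31148 CPM in the ECs labelled WT, 2613 and 3537 CPM in the ECs labelled KO, 7999 and 11157 CPM in Kupffer cells labelled WT and 12500.2 and 15073 CPM in those labelled KO, and its part in the differences was not tested. No call remained when EC library WT 38, EC library KO 46 or Kupffer cell library WT 31 was left out (8, 1 and 29 of all genes passed), 2 remained in number without EC KO 6 (51 of all genes) and 5 without Kupffer cell library KO 43 (92 of all genes).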

How the results depend on the processing

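No paired analysis was possible because the groups compared share no library numbers. Counts of members are given with the count over all genes in parentheses. In ECs, 12 members (305) passed between the labels, 20 (1259) without a filter on low counts, 1 (3) without other hepatocyte-enriched genes, 22 (2192) at an unadjusted p-value under 0.05, and 0 to 15 (3 to 688) when 1 library was left out. In HSCs, where 0 passed (0), 10 (407) did with DESeq2, 13 (663) without the filter, 8 (178) with all 16 libraries in one fit and 13 (1259) at an unadjusted p-value. In hepatocytes, where 0 passed (0), 2 (31) did with DESeq2, 5 (227) without the filter and 9 (821) at an unadjusted p-value, and in Kupffer cells 1 (706) did at an unadjusted p-value. The calls of source kept their number in hepatocytes under all settings; those in HSCs went from 2 to 6 on library totals and to 1 with at least 10 counts in every library, in the 8 WT libraries or in the 8 KO-labelled libraries, those in ECs from 2 to 1 in the 8 WT libraries and to 3 (Cr1l added) on library totals or with at least 10 counts in every library, and those in Kupffer cells from 9 to 8 (C3ar1 lost) with the latter. The interaction of ECs with HSCs gave 0 members (6), 1 (93) with DESeq2, 2 (305) without the filter and 0 to 1 (0 to 11) with a library left out. That with Kupffer cells gave 10 (357), 17 (1302) without the filter and 0 to 12 (1 to 569) with a library left out, and that with hepatocytes 0 (12), 13 (599) with DESeq2, 18 (980) without the filter and 0 to 4 (0 to 110) with a library left out. On library totals in place of TMM, the median of the hepatocyte members as a percentage of WT hepatocytes was 15.0% in ECs WT, 2.24% in ECs KO, 5.33% in HSCs WT, 0.913% in HSCs KO, 6.94% in Kupffer cells WT and 8.98% in Kupffer cells KO. In ECs, leaving out 1 library gave log2 differences of -0.093 to 0.944 for Fcna, -0.0627 to 0.515 for Masp1, -0.623 to 3.12 for C3ar1 and -1.13 to 0.329 for C5ar1, which turned sign without WT 38 (Fcna without KO 6 as well) and had not passed. The cause was not tested in any of these cases. Depth limited C7 and Cfd, the members with 3 counts or fewer in any library.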
